A study of Homo sapiens with 8 samples.

Results

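The 10 genes described here encode the heat shock chaperones HSPA1A, HSPA1B, HSPA8, HSPH1, HSP90AA1, HSP90AB1, DNAJB1, HSPB1, HSPD1 and HSPE1, followed in an endothelial cell line after deletion of an enhancer. The genes were chosen by name, and for each the transcript line with the highest mean FPKM (fragments per kilobase of transcript, scaled to the reads of the library) was kept. All 10 were found among the 27946 genes of the table, and all 10 were among the 13790 genes with enough signal to be tested.

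RNA was sequenced from 8 libraries of EA.hy926, an immortal human line made by fusing umbilical vein endothelial cells with a lung carcinoma line. CRISPR/Cas9 ribonucleoproteins had been used to remove one of a pair of enhancers that lie in a single super-enhancer on chromosome 16. There were 3 clonal lines without the enhancer E2 (DeltaE2 in the labels, ΔE2 below), 3 clonal lines without SE12313-b (DeltaSE12313-b in the labels, ΔSE12313-b below), which was the inactive enhancer in vitro and served as the negative control of the deletions, and 2 libraries of control cells. Each clonal line grew from a single edited cell, and no cells were heated or treated with a drug. In the proliferation assay the control cells had received guide RNAs and were grown beside the clones, and the paper leaves unsaid if the sequenced controls were those cells.

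Heat shock chaperones bind unfolded stretches of other proteins and let them fold, unfold or move on to degradation. HSP70 proteins work in cycles of ATP hydrolysis, started by J-domain proteins such as DNAJB1 and reset by nucleotide exchange factors such as HSPH1, and pass many clients on to HSP90. In the nucleus HSF1 is held back by chaperones, and when unfolded protein draws these away it binds heat shock elements, which are alternating GAA and TTC units, in the promoters of many of these genes.

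Heat shock elements were looked for in the RefSeq promoter windows (GRCh38.p14), which run from 250 bases before to 50 bases after a transcript's start. The members had 16 windows, because some genes have several starts. At least 2 alternating units (GAANNTTC or TTCNNGAA, each of which reads the same on both strands) were present in 9 of the 16 windows, which belonged to 8 of the 10 genes, and in 13.5% of all 35116 windows. A run of 3 or more units was present in 4 of the 16 windows and in 0.49% of all windows. The windows of HSPH1 and HSPE1 held neither, which says only that these letters were not in these windows. In DNAJB1, HSP90AA1, HSP90AB1 and HSPD1 the runs were in windows of more downstream starts, and the most upstream window of each held no run. The transcript kept for the FPKM of DNAJB1, HSP90AB1 and HSPD1 had the most upstream start. That of HSP90AA1 had the more downstream start. The longest run before a start, or of equal runs the nearest to it, is shown for each gene that had one, with the units in capitals, because these are the letters that HSF1 is known to read:
HSPA1A, chr6:31815427-31815454, + strand: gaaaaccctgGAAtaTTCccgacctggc
HSPA1B, chr6:31827623-31827650, + strand: gaaacccctgGAAtaTTCccgacctggc
HSPA8, chr11:123062171-123062199, - strand: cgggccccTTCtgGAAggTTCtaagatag
DNAJB1, chr19:14518427-14518454, - strand: gcgggctctgGAAgcTTCcgccggacgg
HSP90AA1, chr14:102087112-102087140, - strand: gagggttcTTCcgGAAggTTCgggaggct
HSP90AB1, chr6:44247823-44247851, + strand: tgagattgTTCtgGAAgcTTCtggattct
HSPB1, chr7:76302481-76302508, + strand: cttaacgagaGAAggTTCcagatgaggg
HSPD1, chr2:197500063-197500090, - strand: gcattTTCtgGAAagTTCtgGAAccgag

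The windows of HSPA1A and HSPA1B were alike in 277 of 299 bases (92.6%) and had the same order of boxes, with a CCAAT box on each side of the heat shock units and TATAAA before the start. On either strand CCAAT was in 34.6% and TATAAA in 11.5% of all windows, and among the members TATAAA was found in these 2 genes only. The related TATATA was in 3.99% of all windows and in 1 window each of DNAJB1, HSP90AA1 and HSP90AB1. The map of the boxes shows that HSPA8, HSP90AA1 and DNAJB1 each had a run lying wholly within 100 bases of a start. HSPA8 had another run that began at -230. The nearest runs of HSPA1A, HSPA1B and HSP90AB1 ended at -99, -98 and -100.

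The libraries held between 12067557 and 19101153 reads, and the values of the members rested on 405 to 46061 reads each. Of 10 endothelial markers 8 were tested, CDH5 and ENG among them, while KDR was below the filter and CLDN5 had no reads. Of 5 epithelial markers KRT8 and KRT18 were tested and CDH1 had no reads. Differences were tested with limma on log2(FPKM + 0.1) over all 13790 genes, two-sided, and a gene passed when its Benjamini-Hochberg adjusted p was under 0.05. The median change of all genes tested was 0.14 for ΔE2 against control, 0.27 for ΔSE12313-b against control and -0.11 for ΔE2 against ΔSE12313-b on the log2 scale, so a member's change is to be read against these values. Both deletions were set against the same 2 control libraries. In RNA from whole cultures, fewer cells of a type and less RNA per cell cannot be told apart.

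HSPA1A and HSPA1B, the stress-inducible HSP70 proteins, were about 2.3-fold higher in ΔSE12313-b than in control and close to control in ΔE2. HSPA1A had an FPKM of 63.5 and 64.1 in the control libraries, of 75.8, 74.6 and 69.1 in ΔE2 and of 147, 145 and 154 in ΔSE12313-b. HSPA1B, its neighbour on chromosome 6, had 59.0 and 57.9 in control, 69.6, 69.0 and 64.6 in ΔE2 and 134, 130 and 139 in ΔSE12313-b. The groups did not overlap for either gene, and the step to ΔSE12313-b was many times the spread within a group. In ΔSE12313-b the log2 change of HSPA1A was 1.22 (SE 0.07, adjusted p = 4.7e-06) and that of HSPA1B 1.20 (SE 0.07, adjusted p = 4.4e-06). With each library centred on its median both still passed there, but at less than 2-fold.

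In ΔE2 the log2 changes of HSPA1A and HSPA1B were 0.20 (95% interval 0.040 to 0.35, adjusted p = 0.039) and 0.21 (0.060 to 0.36, adjusted p = 0.027). They passed, but they were close to the median of all genes, and with each library centred on its median they were 0.039 (adjusted p = 0.67) and 0.054 (adjusted p = 0.54). Without control replicate 1 or 2, or ΔE2 replicate 1 or 2, neither passed, with adjusted p between 0.051 and 0.16, and without ΔSE12313-b replicate 1 HSPA1A did not (0.059). The deletions themselves differed in HSPA1A by -1.02 (95% interval -1.16 to -0.88, adjusted p = 0.00013) and in HSPA1B by -0.99 (-1.12 to -0.85, adjusted p = 0.00013), a level 2.03-fold and 1.98-fold lower in ΔE2. This difference passed under every alternative that was run.

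The pair are near-identical copies. Of the stretches of 75 bases, the length of a read, 73.8% of the HSPA1A transcript and 70.2% of the HSPA1B transcript occur unchanged in the other gene, so how reads were divided between them is uncertain. Both genes are also entered with 5 copies in the deposited values, and the other members with 1. How copies entered the FPKM is not given in the sources used here, so the absolute levels of the pair are uncertain. The FPKM of HSPA1A and HSPA1B added together were 122 and 122 in control, 134 to 145 in the ΔE2 clones, and 275 to 292 in the ΔSE12313-b clones. The sum changed by 0.20 (adjusted p = 0.034) in ΔE2, by 1.21 (adjusted p = 4.9e-06) in ΔSE12313-b and by -1.01 (adjusted p = 0.00015) between the deletions, which does not depend on that division.

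HSPA8, the HSP70 protein that cells make without stress, was the most abundant of the 10 in control cells, in rank 94 of 19475 protein-coding genes. Its FPKM was 366 and 363 in control, 781, 692 and 844 in ΔE2 and 810, 737 and 685 in ΔSE12313-b. All 6 clones lay above both controls, and the clones of the 2 deletions overlapped. The change was 1.08 (SE 0.11, adjusted p = 0.00012) in ΔE2 and 1.02 (SE 0.11, adjusted p = 0.00012) in ΔSE12313-b. Between the deletions it was 0.053 with a 95% interval from -0.17 to 0.28 (adjusted p = 0.72).

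The ratio of the inducible pair to HSPA8 was lower than control in one deletion's clones and higher in the other's. The summed FPKM of HSPA1A and HSPA1B was 0.335 of that of HSPA8 in control (0.334 and 0.336). The ΔE2 clones had 0.184 ± 0.0247 (SD, n = 3), the ΔSE12313-b clones 0.382 ± 0.0402 (SD, n = 3). The 3 groups did not overlap, but the lowest ΔSE12313-b clone, at 0.347, was close to the controls. The ratio itself was not tested.

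**Figure D1:**
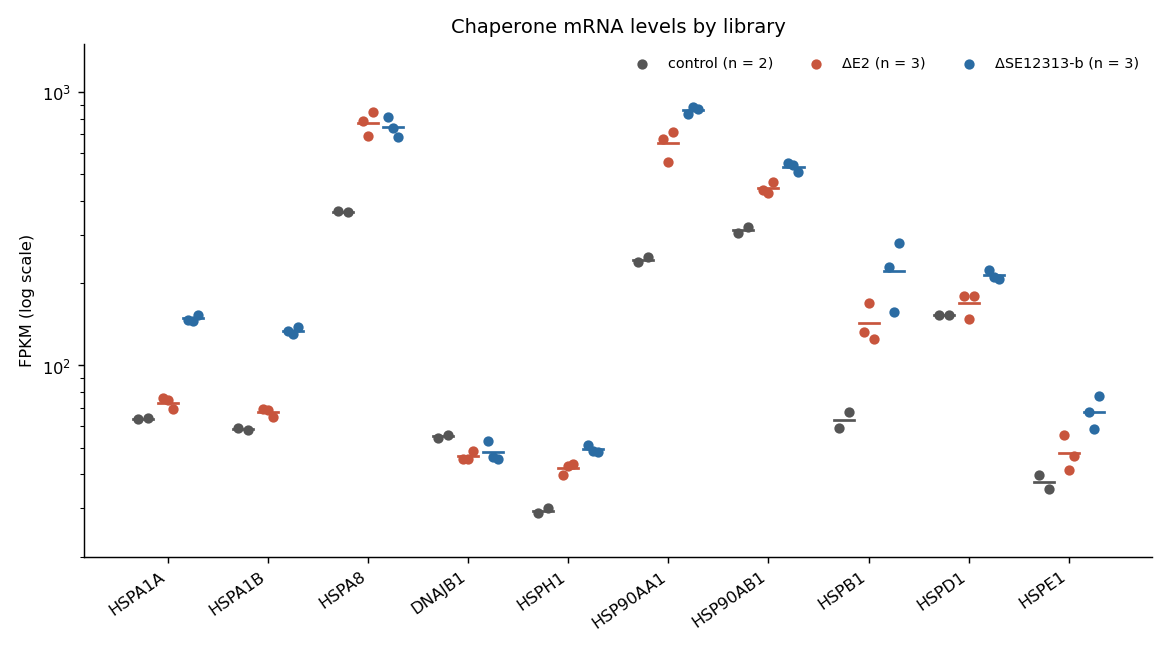
FPKM (log scale) of the 10 genes in each library, with a point for each of 2 control, 3 ΔE2 and 3 ΔSE12313-b libraries and a line at each group's mean. HSPA1A and HSPA1B stand apart in ΔSE12313-b, at 130 to 154, while HSPA8 is above control in all 6 clones.

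DNAJB1, the J-domain protein that starts the cycle of HSP70, was the one member that was lower in the clones. Its FPKM was 54.5 and 55.9 in control, 45.5, 45.5 and 48.8 in ΔE2 and 53.2, 46.4 and 45.7 in ΔSE12313-b, so that all 6 clones lay below both controls. The change in ΔE2 was -0.24 (SE 0.08, adjusted p = 0.039), and it did not pass without control replicate 1 or 2 or without ΔE2 replicate 1 or 2 (adjusted p from 0.076 to 0.17). In ΔSE12313-b it was -0.19 (SE 0.08, adjusted p = 0.081) and did not pass, but it passed with each library centred, at -0.48 (adjusted p = 0.0015), and without ΔSE12313-b replicate 1, at -0.26 (adjusted p = 0.024). The deletions differed by -0.053 (95% interval -0.23 to 0.12, adjusted p = 0.64). HSPA8 exceeded DNAJB1 by a factor of 6.61 in control (6.72 and 6.49), of 16.6 ± 1.16 (SD, n = 3) without E2 and of 15.4 ± 0.459 (SD, n = 3) without SE12313-b.

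HSPH1, an HSP110 protein that resets HSP70 by exchanging its nucleotide, was the least abundant member in control cells. The values were 28.9 and 29.99 in control, 39.7, 42.8 and 43.5 in ΔE2 and 51.3, 48.9 and 48.1 in ΔSE12313-b, with no overlap between any of the groups. It rose by 0.51 (SE 0.07, adjusted p = 0.00059) in ΔE2 and by 0.74 (SE 0.07, adjusted p = 6.8e-05) in ΔSE12313-b.

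HSP90AA1, the inducible cytosolic HSP90, had the largest fitted change of the 10 genes in each deletion. The FPKM of HSP90AA1 was 239 and 250 in control, 676, 557 and 716 in ΔE2 and 832, 886 and 865 in ΔSE12313-b. Again the 3 groups did not overlap. It rose by 1.40 (SE 0.11, adjusted p = 3.8e-05) in ΔE2, or 2.65-fold, and by 1.82 (SE 0.11, adjusted p = 8e-06) in ΔSE12313-b, or 3.53-fold. HSP90AB1, the HSP90 made in most cells at rest, had 305 and 321 in control, 437, 429 and 468 in ΔE2 and 551, 541 and 510 in ΔSE12313-b. It rose by 0.51 (SE 0.08, adjusted p = 0.00094) and 0.77 (SE 0.08, adjusted p = 8.9e-05).

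The order of the 2 HSP90 genes turned over. HSP90AA1 was at 0.780 of HSP90AB1 in control (0.777 and 0.783), while the ΔE2 clones averaged 1.46 ± 0.138 (SD, n = 3) and the ΔSE12313-b clones 1.61 ± 0.0948 (SD, n = 3). The lowest clone had a ratio of 1.30, and the clones of the deletions overlapped. The HSP90AA1 transcript shares 9.13% and the HSP90AB1 transcript 7.26% of its stretches of 75 bases with other places in GRCh37, none of them in the other gene.

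HSPB1, the small heat shock protein HSP27 that holds unfolded proteins without ATP, had the largest standard error on the log2 scale of the 10 genes. It was 59.2 and 67.3 in control, 133, 169 and 125 in ΔE2 and 229, 157 and 281 in ΔSE12313-b. All clones were above both controls, and the clones of the deletions overlapped because of ΔSE12313-b replicate 2. The rise was 1.16 (SE 0.23, adjusted p = 0.0040) in ΔE2 and 1.77 (SE 0.23, adjusted p = 0.00039) in ΔSE12313-b. The deletions differed by -0.61 (95% interval -1.10 to -0.13, adjusted p = 0.067), which did not pass, but without ΔSE12313-b replicate 2 the difference was -0.84 (adjusted p = 0.012).

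HSPD1 and HSPE1 encode HSP60 and HSP10, the chamber and the lid of the mitochondrial chaperonin, from neighbouring genes on chromosome 2 that are read in opposite directions. HSPD1 had 153 and 153 in control, 180, 148 and 180 in ΔE2 and 223, 210 and 207 in ΔSE12313-b. HSPE1 had 39.7 and 35.4 in control, 55.6, 41.5 and 46.8 in ΔE2 and 67.6, 58.4 and 77.2 in ΔSE12313-b. In ΔSE12313-b all clones of both genes were above control and above ΔE2, and in ΔE2 replicate 2 was the lowest clone for both. In ΔE2 neither passed, with 0.14 (95% interval -0.09 to 0.36, adjusted p = 0.26) for HSPD1 and 0.34 (-0.0039 to 0.69, adjusted p = 0.087) for HSPE1. Without ΔE2 replicate 2 both did, at 0.23 (adjusted p = 0.027) and 0.44 (adjusted p = 0.040).

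In ΔSE12313-b HSPD1 rose by 0.48 (SE 0.10, adjusted p = 0.0036) and HSPE1 by 0.84 (SE 0.15, adjusted p = 0.0018). For HSPD1 this was close to the median of all genes, and with each library centred it was 0.19 (adjusted p = 0.13). The genomic spans of the kept transcripts of the pair, introns included, overlap by 278 bases (chr2:198364721-198364998, hg19), on opposite strands. How much of that stretch is exon was not measured. The library kit keeps the strand, but whether the counting used it is not given in the sources used here. The division of the reads of that stretch is therefore uncertain. Of the stretches of 75 bases, 20.9% in HSPD1 and 21.3% in HSPE1 also occur elsewhere in GRCh37. The transcript HSPE1-MOB4 begins at the same base as HSPE1 and spans it. Its mean FPKM was 8.60 in control, 9.06 in ΔE2 and 10.6 in ΔSE12313-b. How reads were divided between it and HSPE1 is uncertain, and so are the values of HSPE1. HSPD1 exceeded HSPE1 by a factor of 4.09 in control (3.85 and 4.33), of 3.55 ± 0.305 (SD, n = 3) without E2 and of 3.20 ± 0.466 (SD, n = 3) without SE12313-b.

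**Figure D2:**
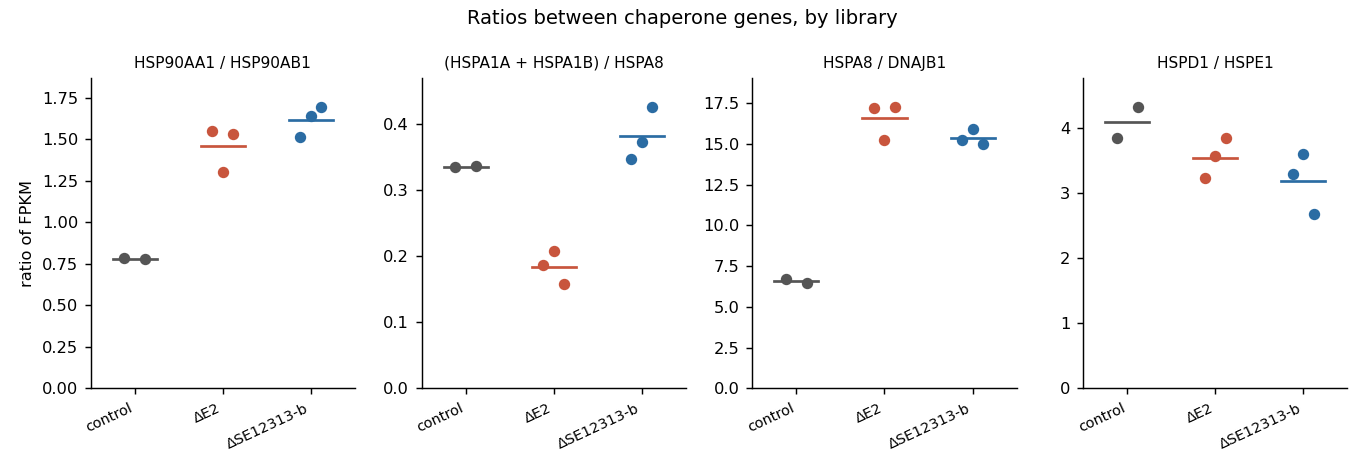
Ratios of FPKM between members in each library, with a point per library and a line at the group mean. HSP90AA1 to HSP90AB1 and HSPA8 to DNAJB1 are higher in all 6 clones than in both controls, and the HSPA1 pair to HSPA8 is lower than control in ΔE2 and higher in ΔSE12313-b.

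Over the 10 genes, 7 rose and 1 fell in ΔE2, where 34.7% of all genes tested were higher and 19.4% lower. In ΔSE12313-b 9 rose and none fell by limma's test (DNAJB1, the one left, had an unadjusted p of 0.052, so that 0 fell at an unadjusted p under 0.05, and with voom it fell), where 43% of all genes were higher and 16.4% lower. A rise of at least 2-fold was found for 3 members in ΔE2 (HSP90AA1, HSPB1 and HSPA8) and for 5 in ΔSE12313-b (the same 3 with HSPA1A and HSPA1B), where 11.2% and 14.7% of all genes rose as much. With each library centred the 5 in ΔSE12313-b became 2 (HSP90AA1 and HSPB1, without the HSPA1 pair), and with voom the 3 in ΔE2 became 1. No member fell by 2-fold in either, as 8.36% and 7.83% of all genes did. The members had a median log2 change of 0.43 without E2 and of 0.93 without SE12313-b, beside 0.14 and 0.27 for all genes tested. HSPA1A and HSPA1B share most of their stretches of 75 bases but enter these counts and medians as separate members.

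HSP90AA1, HSPB1, HSPA8, HSPH1 and HSP90AB1 passed in both deletions under every alternative that was run. Together the 10 genes held 0.564% of the FPKM of protein-coding genes in control (0.559% and 0.569%), 0.831% ± 0.0417 (SD, n = 3) without E2 and 0.931% ± 0.0382 (SD, n = 3) without SE12313-b. The controls were thus below all clones, and each deletion's clones lay apart from the other's.

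**Figure D3:**
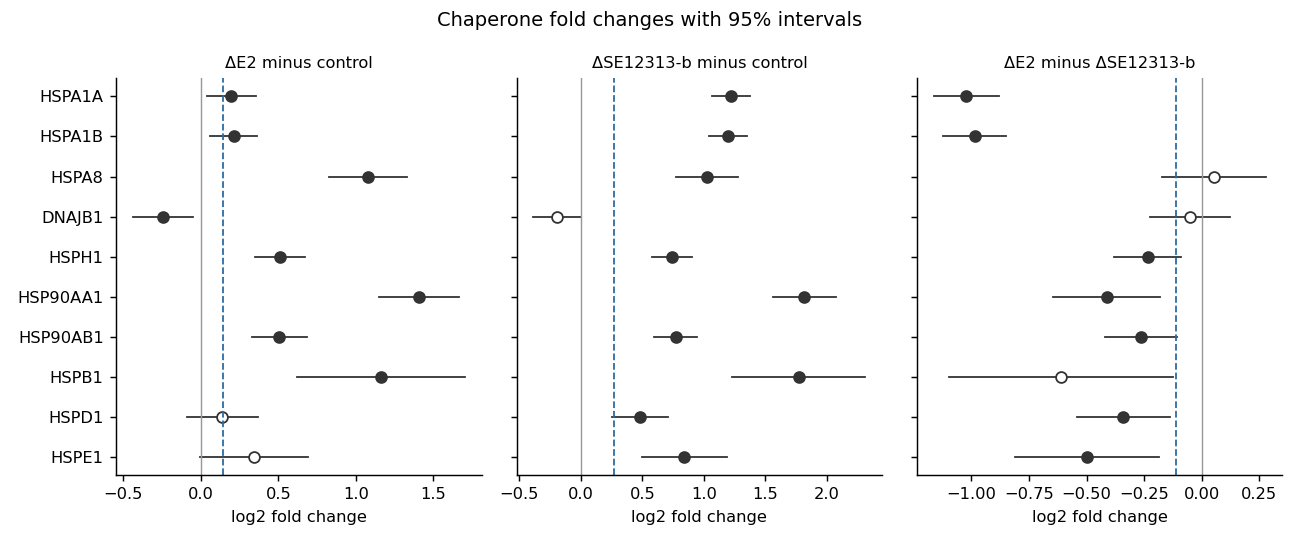
Log2 fold change of each gene with its 95% interval for ΔE2 minus control, ΔSE12313-b minus control and ΔE2 minus ΔSE12313-b, with filled points where the adjusted p was under 0.05. The dashed line is the median of all 13790 genes tested (0.14, 0.27 and -0.11), and the grey line is 0.

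Transcripts of cell cycle genes were higher in the clones too. This is a measure of RNA and not of growth, which the study assayed apart and which is not part of these files. All 6 such genes that were looked at (MKI67, TOP2A, CCNB1, CDK1, PCNA and MCM2) rose in both deletions, and the median of their log2 changes was 4.09 without E2 and 4.25 without SE12313-b. Their summed FPKM was 76.4 to 79.0 in control, 447 to 552 in ΔE2 and 515 to 556 in ΔSE12313-b. Between the deletions CDK1 was lower in ΔE2 (-0.39, adjusted p = 0.021) and the other 5 did not pass. Of the epithelial markers the keratins KRT8 (1.65 in each deletion) and KRT18 (1.48 and 1.14) rose, and the list summed to an FPKM of 232 to 239 in control, 613 to 752 in ΔE2 and 541 to 669 in ΔSE12313-b. EPCAM had 12 and 5 reads in control and 0 to 7 in the clones, and CDH1 none. ACTA2, of smooth muscle, fell (-2.80 and -2.52). The endothelial list summed to 371 to 372 in control, 390 to 570 in ΔE2 and 372 to 532 in ΔSE12313-b, but its 8 tested genes did not move as one. PECAM1 rose by 1.11 and 2.10 and ERG by 1.25 and 1.09, whereas VWF fell (-1.72 and -1.80). In ΔE2 TEK (0.94) and ESAM (1.08) rose and TIE1 fell (-0.37), in ΔSE12313-b ENG rose (0.45), and CDH5 did not pass in either. PECAM1 was lower in ΔE2 than in ΔSE12313-b (-0.98, adjusted p = 0.026). The part of the cell cycle or of cell identity in the chaperone values was not tested.

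Set directly against each other, the deletions differed most in HSPA1A and HSPA1B. In all, 7 members were lower in ΔE2 than in ΔSE12313-b, where 19.3% of all genes tested were lower, and none was higher by limma's test, where 6.69% of all genes were. At an unadjusted p under 0.05, or with voom, 0 members were higher. HSPA1A was the one member lower by at least 2-fold, beside 2.63% of all genes, and 1.6% of all genes were higher by as much. The median of the members was -0.38, beside -0.11 for all genes. The HSPA1 pair, with most of its sequence shared, enters these counts and this median as separate members. The 5 that passed besides the HSPA1 pair were HSPE1 at -0.50 (adjusted p = 0.030), HSP90AA1 at -0.41 (adjusted p = 0.020), HSPD1 at -0.34 (adjusted p = 0.025), HSP90AB1 at -0.26 (adjusted p = 0.026) and HSPH1 at -0.23 (adjusted p = 0.029).

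These 5 were close to the threshold. With each library centred 2 members passed, the HSPA1 pair, and HSP90AA1 was at -0.28 (adjusted p = 0.081). Without control replicate 1, control replicate 2 or ΔSE12313-b replicate 1, 3 members passed, which were the pair and HSP90AA1.

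In control cells the levels, which FPKM gives per length, ran from HSPA8 (365) through HSP90AB1 (313), HSP90AA1 (244) and HSPD1 (153) down to HSPA1A (63.8), HSPB1 (63.3), HSPA1B (58.4), DNAJB1 (55.2), HSPE1 (37.6) and HSPH1 (29.5). The 2 control values of HSPB1 lay on either side of those of its neighbour HSPA1A, and no other neighbours overlapped. The transcripts annotated for one member differed by at most 0.05 in their log2 change, in HSPH1.

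The other genes of the chaperone network were followed in 7 lists of textbook partners, of which 60 of 71 genes were tested. In ΔE2 38 rose and 6 fell, with a median of 0.42, and in ΔSE12313-b 38 rose and 5 fell, also with a median of 0.42, beside the shares of all genes given above. With each library centred, 31 rose and 8 fell in ΔE2 and 24 rose and 9 fell in ΔSE12313-b. Between the deletions 6 were higher and 11 lower in ΔE2, beside 6.69% higher and 19.3% lower among all genes, and 10 were higher and 9 lower with each library centred.

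Of the regulators, HSF1, the main factor that binds heat shock elements, was 66.5 and 63.5 in control, 45.7, 42.4 and 47.4 in ΔE2 and 70.0, 64.2 and 66.5 in ΔSE12313-b. Only the ΔE2 clones stood apart from the controls. HSF1 fell by 0.53 (adjusted p = 0.00072) in ΔE2, differed by 0.04 from control in ΔSE12313-b (adjusted p = 0.67) and differed by -0.57 (adjusted p = 0.0014) between the deletions. With each library centred or with voom HSF1 was lower than control in ΔSE12313-b too, at -0.25 (adjusted p = 0.020 and 0.022). HSF2, a related factor, fell by 0.32 (adjusted p = 0.033) in ΔSE12313-b and was at 0.08 (adjusted p = 0.56) in ΔE2. HSF4 fell in both, from a mean FPKM of 7.99 to 1.26 in ΔE2 and 0.932 in ΔSE12313-b. HSBP1, which binds HSF1, rose by 0.56 in ΔE2 and by 0.28 in ΔSE12313-b, where it was at -0.0045 with each library centred. In this list 1 of 5 genes tested rose and 2 fell in each deletion, beside 34.7% and 43% higher and 19.4% and 16.4% lower among all genes. In ΔSE12313-b 0 rose and 3 fell with each library centred or with voom.

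BAG3, a nucleotide exchange factor that steers clients of HSP70 to autophagy, had a mean FPKM of 18.7 in control, 26.2 in ΔE2 and 43.5 in ΔSE12313-b. It rose by 0.49 (adjusted p = 0.0012) and 1.21 (adjusted p = 9.8e-06), and the deletions differed by -0.73 (adjusted p = 0.00072). Of the 16 partners of HSP70 tested, 10 rose and 1 fell in ΔE2, and 11 rose and 2 fell in ΔSE12313-b. Among all genes tested 34.7% and 43% were higher, and 19.4% and 16.4% lower. With each library centred 8 partners rose and 2 fell in ΔE2, and 8 rose and 3 fell in ΔSE12313-b. The exchange factors BAG1 (1.38 and 1.33) and BAG2 (1.20 and 1.45) rose most, and the J-domain gene DNAJB6 fell in both (-0.32 and -0.31), as DNAJA2 did in ΔSE12313-b (-0.32). HSPA4L, of the HSP110 family, and the J-domain gene DNAJB4 were higher in ΔE2 than in ΔSE12313-b by 0.83 (adjusted p = 0.0044) and 0.46 (adjusted p = 0.014), while STUB1, a ubiquitin ligase that works with HSP70, was lower (-0.59, adjusted p = 0.0043).

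Of the 13 partners of HSP90, 9 rose and 0 fell in each deletion by limma's test, and 0 were lower at an unadjusted p under 0.05. Among all genes tested 34.7% were higher in ΔE2 and 43% in ΔSE12313-b, and 19.4% and 16.4% were lower. With each library centred 8 partners rose and 1 fell in ΔE2, and 6 rose and 1 fell in ΔSE12313-b. With voom FKBP4 fell in ΔE2 (-0.47) and PPID in ΔSE12313-b (-0.53). PTGES3, the co-chaperone p23, rose by 1.06 and 1.12, and CACYBP by 1.00 and 1.20. AHSA1, which speeds up the ATPase of HSP90, rose by 0.49 and 0.97 and was lower in ΔE2 than in ΔSE12313-b (-0.48, adjusted p = 0.0062), as was the immunophilin FKBP4 (-0.67, adjusted p = 0.011). PPID, another immunophilin, was higher in ΔE2 (0.39, adjusted p = 0.026).

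All 8 subunits of TRiC, the cytosolic chaperonin that folds actin and tubulin, rose in both deletions, with medians of 0.74 in ΔE2 and 0.83 in ΔSE12313-b, and 5 of the 8 rose in ΔSE12313-b with each library centred. TCP1 rose more in ΔE2 (1.09 against 0.52) and CCT2 more in ΔSE12313-b (0.53 against 1.01), and the differences of 0.58 (adjusted p = 0.0038) and -0.47 (adjusted p = 0.0081) passed. CCT5 rose alike (0.96 and 0.94, with a difference of 0.02 that did not pass). Of the 9 genes of mitochondrial folding and proteolysis, 4 rose and 2 fell in ΔE2 and 3 rose and 1 fell in ΔSE12313-b. These counts stand beside 34.7% and 43% higher and 19.4% and 16.4% lower among all genes tested. With each library centred or with voom 1 rose and 2 fell in each deletion. The protease LONP1 fell in both (-0.59 and -0.76), and the disaggregase CLPB rose in both (0.69 and 0.41, though 0.12 in ΔSE12313-b with each library centred, which did not pass), while HSCB, of iron-sulphur cluster assembly, rose in ΔE2 (0.60, though 0.44 with adjusted p = 0.074 when centred). TRAP1, the mitochondrial HSP90, was at -0.02 in ΔE2 and rose by 0.58 in ΔSE12313-b, a difference of -0.60 (adjusted p = 0.0026). The J-domain gene DNAJA3 fell by 0.38 in ΔE2 and was also lower there than in ΔSE12313-b (-0.58, adjusted p = 0.0068).

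Among 7 other HSP70 and HSP90 genes tested, 4 rose in each deletion, and HSPA1L fell in ΔE2. The shares higher among all genes tested were 34.7% in ΔE2 and 43% in ΔSE12313-b. With each library centred 3 of the 7 rose in ΔE2 and 2 in ΔSE12313-b. HSPA2 rose from a mean FPKM of 0.544 to 2.90 in ΔE2 and 2.51 in ΔSE12313-b, and HSPA14 from 2.74 to 9.50 and 12.8. HSPA14 was lower in ΔE2 than in ΔSE12313-b (-0.43, adjusted p = 0.038). HSPA1L, the neighbour of HSPA1A, had a mean of 2.18 in control, 1.33 in ΔE2 and 2.36 in ΔSE12313-b, and the deletions differed by -0.81 (adjusted p = 0.016). Its values rested on 33 to 98 reads, and it is entered with 5 copies like the HSPA1 pair, so they are uncertain. HSPA6, the HSP70 gene that is known to be all but silent without heat, had 0 and 0 reads in control, 1, 1 and 0 in ΔE2 and 7, 6 and 1 in ΔSE12313-b and was not tested. Of 9 further small heat shock genes 2 were tested, and both rose in both deletions. These were HSPB8 (1.98 and 1.94), which works with BAG3, and HSPB11 (0.91 and 0.98), a part of the transport complex of cilia. CRYAB had no reads in any library.

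**Figure D4:**
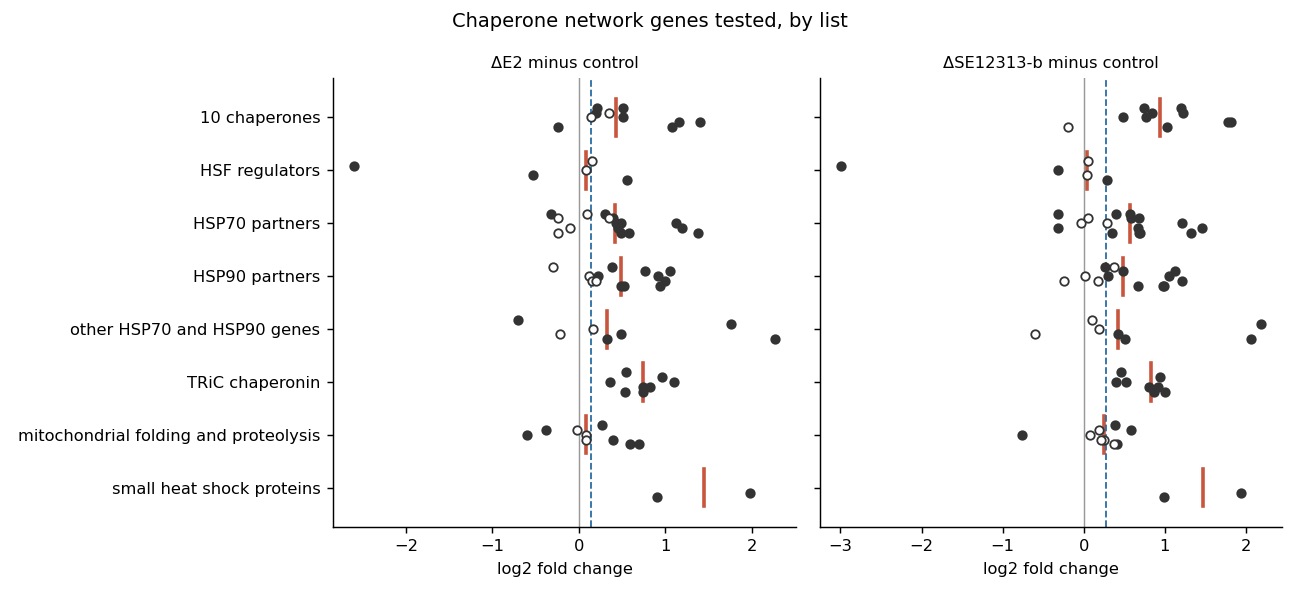
Log2 fold change of the genes tested in each list for ΔE2 minus control and ΔSE12313-b minus control, with filled points where the adjusted p was under 0.05. The red bar is the median of a list and the dashed line that of all genes tested (0.14 and 0.27), and the TRiC chaperonin list lies above that line throughout.

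The genes whose pattern was most like that of HSPA1A were found by the root mean square distance over the 8 libraries of log2(FPKM + 0.1), each gene less its own mean. HSPA1B was nearest, at 0.0209. Of its stretches of 75 bases 70.2% also occur in HSPA1A, so this nearness is no measure of the genes apart. Outside the members the nearest were CD276 (0.0771), TWF2 (0.0800), TSTA3 (0.0862), GGT2 (0.0866) and FAH (0.0943). CD276, a cell surface protein of the B7 family, had mean FPKM of 11.8, 14.2 and 29.8 in control, ΔE2 and ΔSE12313-b. TWF2, an actin-binding protein, had 23.1, 27.3 and 51.8. The reads of GGT2 are uncertain, because its family has copies that are almost the same. The other members were farther from HSPA1A than these, at 0.271 for HSPE1 to 0.589 for DNAJB1.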

How the data were processed

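The authors trimmed single-end reads of rRNA-depleted RNA with Trim Galore 0.4.4, mapped them to GRCh37/hg19 with STAR 2.5.4b and deposited FPKM per RefSeq transcript. The tool behind the FPKM, the RefSeq release and the use of strand in counting are not given in the sources used here. For each of 27946 genes the transcript with the highest mean was kept (42 lines that name no gene counted as 1).

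The test (limma 3.58.1, R 4.3.3) used log2(FPKM + 0.1) for the 13790 genes that reached 0.5 FPKM in 2 or more libraries, with 3 groups in one model, empirical Bayes with a variance trend, two-sided, and Benjamini-Hochberg adjustment over all of them. A fold change on this scale understates that of low genes. The steps were tested on simulated data. Where labels do not say that libraries came from separate cultures, p-values measure the spread between libraries only.

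Whole reads were recovered from the FPKM for 99.95% to 99.98% of the values checked, within 0.1 read. They give the depth of 12067557 to 19101153 reads a library and were used for limma's voom. The control libraries differed by little more than counting noise (chi-square per degree of freedom of 1.19), and clones of one deletion by far more (3.98 to 22.8). Both controls were kept, and the labels do not say if they came from separate cultures. Perfect matches of 75-base stretches were sought in GRCh37, and promoter windows came from RefSeq (GRCh38.p14).

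The members and lists were chosen with earlier results of these data known. The text names all members, HSF1, HSF2 and BAG3, and in each list, among the genes passing a comparison, the 2 that rose most and the 2 that fell most. HSPA6, CRYAB and the cell type markers given with values were named after their values were seen. The alternatives were a pseudocount of 1, genes with any signal in 2 libraries, each library centred on its median log2 ratio, a replicate block, voom on recovered reads, and each library left out.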

Additional observations from a re-analysis of the deposited data

How the results depend on the processing

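Of 390 values of single genes under 13 alternatives, 321 kept their direction and side of the threshold, 56 no longer passed, 6 newly passed and 7 turned. HSPD1 turned in ΔE2 with each library centred (-0.019) and with voom (-0.027). Between the deletions DNAJB1 turned when centred (0.077), with voom (0.066) and without ΔSE12313-b replicate 1 (0.016, range -0.093 to 0.016 with single libraries left out), and HSPA8 without ΔE2 replicate 3 (-0.013, range -0.013 to 0.13) and without ΔSE12313-b replicate 3 (-0.0047). None of these passed. The sum of HSPA1A and HSPA1B no longer passed in ΔE2 when centred (0.046), under the replicate block (0.21), with voom (0.039) or without control replicate 1 or 2, ΔE2 replicate 1 or 2 or ΔSE12313-b replicate 1 (0.18 to 0.24 over all libraries left out).

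The counts depended most on scaling, which sets the median of all genes. In ΔSE12313-b, members higher by 2-fold went from 5 to 2 when centred and with voom, members lower from 0 to 1, pathway genes higher from 38 to 24 and lower from 5 to 9. In ΔE2, members higher by 2-fold went from 3 to 1 with voom. Between the deletions, members lower went from 7 to 2 when centred and 3 with voom, those lower by 2-fold from 1 to 0, and pathway genes higher from 6 to 10. Over all genes, higher against lower calls were 4783 and 2672 in ΔE2 (3670 and 3593 centred, 3470 and 3672 with voom), 5927 and 2261 in ΔSE12313-b (3815 and 3769, 3679 and 3797) and 923 and 2667 between the deletions (1455 and 1524, 1561 and 1785).

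With single libraries left out, members lower in ΔE2 ranged from 0 (each control, ΔE2 replicates 1 and 2) to 1 and pathway genes lower there from 3 (control replicate 1) to 6. In ΔSE12313-b these were 0 to 1 (ΔSE12313-b replicate 1) and 2 to 5 (lowest without control replicate 1). Between the deletions members lower were 3 to 6, those lower by 2-fold 0 (ΔE2 or ΔSE12313-b replicate 3) to 2, and pathway genes higher 3 (ΔE2 replicate 3) to 8. The cause was not tested.

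The replicate numbers of the labels did not pair the libraries (correlations of deviations from -0.08 to 0.11). With the replicate block, members lower went from 1 to 0 in ΔE2 and from 7 to 4 between the deletions, and genes passing from 7455 to 6402, 8188 to 7242 and 3590 to 2534. With 2 control libraries, small changes such as those of HSPA1A in ΔE2 are at the limit of what could be detected.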
